A study of Mus musculus with 6 samples.

Results

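Genes of sphingosine-1-phosphate (S1P) signalling were followed in cultured adult mouse aortic endothelial cells (EC) that carried a vector for Meis1, a homeodomain transcription factor. They are the S1P receptors S1pr1, S1pr2, S1pr3 and S1pr4, the sphingosine kinases Sphk1 and Sphk2, the S1P lyase Sgpl1, the S1P exporter Spns2 and the lipid phosphate phosphatases Plpp1 and Plpp3. These 10 genes were taken by symbol from a count table of 54429 genes, and each symbol had a row. A count in at least 1 library was present for 9 of them, and 8 passed the edgeR filter on low counts. RNA-seq after ribodepletion was performed on 6 libraries of primary aortic EC from adult wild-type C57BL/6 mice. In 3 libraries the cells had been transduced with the lentiviral Meis1-OE vector and in 3 with the YFP-CTRL vector, so both groups were exposed to a vector and both express YFP. EC were plated at 100000 per well and transduced for 48 h. They were sorted at 72 h for YFP and the EC surface proteins CD31 and VEC (VE-cadherin), then grown to confluency before RNA was taken from 300000 cells. The EC were a purchased primary stock, Meis1 came from a vector and not from its own locus, and the number of donor mice is not given in the sources used here.

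S1P is a signalling lipid that sphingosine kinases make from sphingosine inside the cell. In the vessel wall, Spns2 carries it out of EC, and it then binds G protein-coupled receptors. S1pr1 is the main receptor of EC, where it couples to inhibitory G proteins, tightens cell junctions and restrains sprouting, whereas S1pr2 also couples to the G proteins that activate RhoA and Rock kinases. S1P is cleaved irreversibly by the lyase Sgpl1, and lipid phosphate phosphatases such as Plpp3 remove its phosphate.

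Levels are counts scaled to a common library size with edgeR's TMM factors (CPM), and the libraries of each group carry the letters A, B and C, an order kept wherever 3 values are given. Meis1 stood at 2961, 3477 and 3223 CPM with the Meis1-OE vector and at 1.15, 1.42 and 1.87 CPM with the YFP-CTRL vector, with reads of vector and endogenous Meis1 not separated. Library totals ran from 34176592 to 47956569 counts. Of 16065 genes tested with edgeR's quasi-likelihood test, Meis1-OE EC had 665 genes higher and 438 lower (adjusted p under 0.05), and scaling to library totals gave 1048 and 179. That scaling moved the median log2 fold change of all genes from 0.01 to 0.15. YFP-CTRL library C stood apart from A and B. The proliferation score, which is the mean log2(CPM + 1) of 15 S phase and mitosis genes, was 4.63, 5.47 and 6.63 in YFP-CTRL EC and 6.65 to 6.71 in Meis1-OE EC. Without YFP-CTRL library C, 2717 genes were higher and 2498 were lower.

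Among the S1P genes, the receptor S1pr1 was lower and the lyase Sgpl1 was higher in Meis1-OE EC. S1pr1 stood at 0.523 of its YFP-CTRL level (95% interval 0.373 to 0.735, n = 3 per group) and Sgpl1 at 1.499 times it (1.26 to 1.78, n = 3 per group). The exporter Spns2 had the most negative log2 fold change, -1.09, and passed the threshold with DESeq2 but not with edgeR. In edgeR, 1 of the 8 tested genes was called higher and 1 lower, where 4.14% of all tested genes were higher, 2.73% lower and 6.87% called in either direction. DESeq2, which also tested S1pr4, called 1 higher and 2 lower, at a background of 12.3%. The fit that includes the proliferation score called Sgpl1 higher and Spns2 lower (background 4.05%), and the fit without YFP-CTRL library C called S1pr2 and Sgpl1 higher and S1pr1 and Sphk2 lower (background 31.7%). At an unadjusted p under 0.05, 5 of the 8 passed, against 26.2% of all tested genes. Their median log2 fold change was -0.32, beside 0.01 over all tested genes. In 4 of the 8 (S1pr1, Sphk1, Spns2 and Sgpl1) the Meis1-OE and YFP-CTRL libraries did not overlap, against 33.1% of all tested genes. The S1P genes were chosen with earlier results of these data known. Their counts and median beside all genes are thus a description and no test of the set. In bulk libraries, fewer cells of a type and less RNA per cell cannot be told apart.

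**Figure D1:**
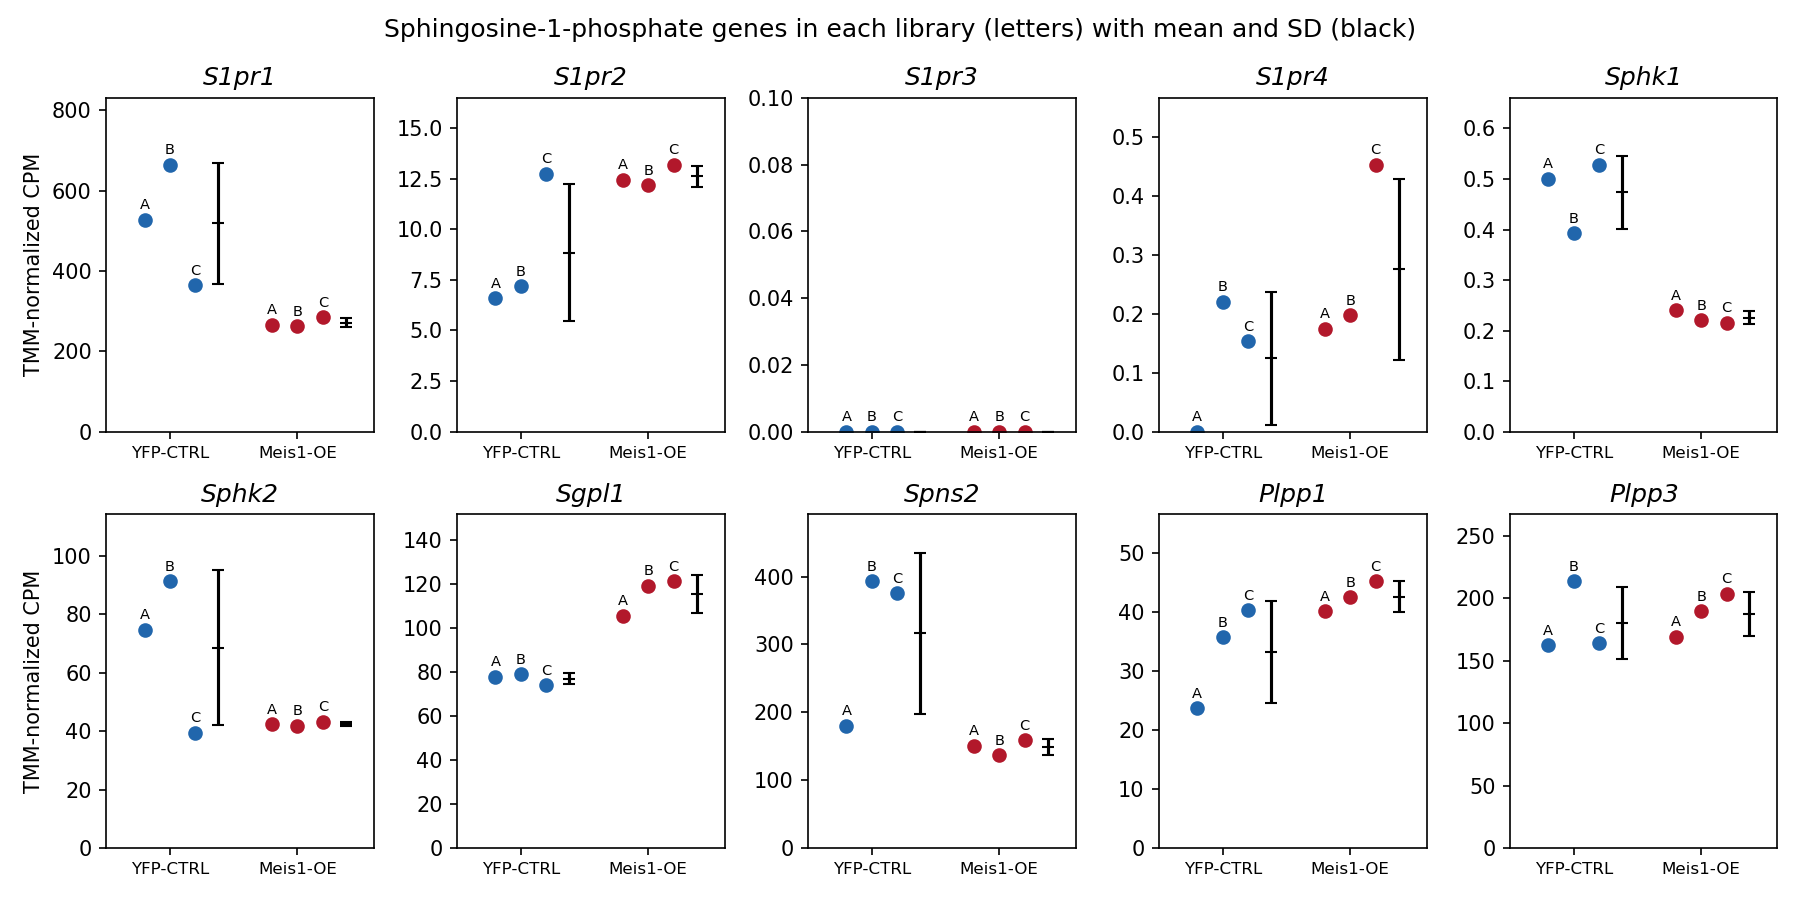
TMM-normalized CPM of the 10 S1P genes in each library, with the library letter above each point and the group mean and SD (n = 3) in black beside it. All 3 Meis1-OE libraries lie below all 3 YFP-CTRL libraries for S1pr1, Sphk1 and Spns2 and above them for Sgpl1, and S1pr3 is at 0 in all 6.

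S1pr1 (chr3:115710433-115715055, build GRCm38) had the highest level per kilobase among the S1P genes. The Meis1-OE libraries held 266, 263 and 285 CPM and the YFP-CTRL libraries 527, 665 and 364 CPM. Every Meis1-OE library was lower than every YFP-CTRL library, and YFP-CTRL library C was the closest to them. Mean S1pr1 was 272 ± 11.9 CPM after Meis1-OE and 519 ± 151 CPM after YFP-CTRL (SD, n = 3 each). The log2 fold change of -0.93 (standard error 0.21) carried edgeR adjusted p = 0.0441 and DESeq2 adjusted p = 0.00245. The spread of the YFP-CTRL libraries was wide, and the edgeR call depended on most single libraries. Dropping Meis1-OE A, B or C gave adjusted p of 0.151, 0.201 and 0.170, and dropping YFP-CTRL A, B or C gave 0.0814, 0.120 and 0.00171. On library totals the adjusted p of S1pr1 was 0.0577. Its log2 fold change stayed between -1.15 and -0.71 when single libraries were left out. Once the proliferation score of each library entered the fit, it was -0.59 (edgeR adjusted p = 0.209).

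The other receptors had far lower levels per kilobase. For S1pr2 (chr9:20965952-20976793), the Meis1-OE libraries held 12.4, 12.2 and 13.2 CPM and the YFP-CTRL libraries 6.59, 7.18 and 12.7 CPM. The groups overlapped, because YFP-CTRL library C lay within the range of the Meis1-OE libraries while A and B were lower. The log2 fold change was 0.51 (standard error 0.26, edgeR adjusted p = 0.257). Dropping YFP-CTRL library C raised it to 0.86 (edgeR adjusted p = 0.00377), and fitting the proliferation score brought it to 0.03 (edgeR adjusted p = 0.939). S1pr4 (chr10:81497745-81500137), a receptor best known from lymphocytes, had 8, 9 and 21 counts in Meis1-OE EC and 0, 9 and 7 in YFP-CTRL EC. It did not pass the edgeR filter and had DESeq2 adjusted p = 0.557. S1pr5, an S1P receptor outside the 10 genes, had 1 count in Meis1-OE library B and 0 in every other library. S1pr3 (chr13:51408618-51422797) was listed at 0 in all 6 libraries. A count of 0 allows up to 3 counts, which is 0.0648 to 0.0883 CPM per library, and covers counting error only. A long noncoding RNA that overlaps S1pr3 in the RefSeq annotation, Gm32834, was also at 0 in all 6. Whether counting left out reads at S1pr3 or at Sphk1 cannot be told from the table, and the floor and the receptor shares take the counts as listed.

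Counts of S1pr1 and S1pr2 within the same library do not depend on scaling between libraries. For each S1pr2 count there were 21.4, 21.6 and 21.6 S1pr1 counts after Meis1-OE, and 79.98, 92.6 and 28.6 after YFP-CTRL. The groups did not overlap, with the ratio lower after Meis1-OE and YFP-CTRL library C again the nearest. S1pr1 by itself did not overlap between the groups and S1pr2 did, so the ratio in part restates the level of S1pr1. Per kilobase of exon, S1pr1 made up 95.02% ± 0.0999 of the level of the 4 receptors in Meis1-OE EC and 97.9% ± 1.41 in YFP-CTRL EC (SD, n = 3 each). S1pr2 made up 4.78%, 4.73% and 4.72% after Meis1-OE and 1.33%, 1.15% and 3.62% after YFP-CTRL. The YFP-CTRL mean of the S1pr2 share rested on library C, at 2.03% ± 1.38 (SD, n = 3) with it and 1.24% without it.

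Both sphingosine kinases had negative log2 fold changes, and neither passed the threshold. Sphk2 (chr7:45709463-45718002), the kinase found largely in the nucleus and mitochondria, read 42.4, 41.95 and 43.3 CPM after Meis1-OE and 74.7, 91.5 and 39.5 CPM after YFP-CTRL. YFP-CTRL libraries A and B were above all Meis1-OE libraries and C was below them. Its log2 fold change was -0.69 (standard error 0.28, edgeR adjusted p = 0.172). Dropping YFP-CTRL library C gave -0.98 (edgeR adjusted p = 0.00197), and fitting the proliferation score gave -0.09 (edgeR adjusted p = 0.893). Sphk1 (chr11:116530836-116536675), the kinase that acts mostly in the cytosol and at the plasma membrane, was near the limit of detection. It had 11, 10 and 10 counts in Meis1-OE libraries and 17, 16 and 24 in YFP-CTRL libraries. No Meis1-OE library reached a YFP-CTRL library, and the log2 fold change was -1.06 (standard error 0.31, edgeR adjusted p = 0.0846, DESeq2 adjusted p = 0.193). Its deposited counts lay up to 0.332 from a whole number, so part of its few counts was assigned by estimate. Sphk2 overlaps Dbp and Rpl18 in the annotation. Whether strand was used in counting is not stated, so reads in those overlaps may have been assigned to either gene.

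Spns2 (chr11:72451638-72489976), which carries S1P out of EC, had 151, 136 and 159 CPM after Meis1-OE against 180, 394 and 375 CPM after YFP-CTRL. All Meis1-OE libraries were lower, and YFP-CTRL library A was close to them, so here A and not C was the nearest YFP-CTRL library. The means were 149 ± 11.4 and 316 ± 118 CPM (SD, n = 3 each). The log2 fold change of -1.09 (standard error 0.28) had edgeR adjusted p = 0.0626 and DESeq2 adjusted p = 0.00442. Dropping YFP-CTRL library A gave -1.39 (edgeR adjusted p = 0.0045), and fitting the proliferation score gave -1.57 (edgeR adjusted p = 0.0264). The annotated end of Spns2 overlaps Mybbp1a.

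Sgpl1 (chr10:61098642-61147684), which breaks S1P down for good, had 105.6, 119 and 121.5 CPM after Meis1-OE (mean 115.5 ± 8.62 CPM, SD, n = 3). After YFP-CTRL it had 77.9, 79.1 and 74.1 CPM (mean 77.05 ± 2.61 CPM, SD, n = 3). The 3 YFP-CTRL libraries agreed closely, C included, and every Meis1-OE library was above them. The log2 fold change of 0.58 (standard error 0.11) had edgeR adjusted p = 0.0232 and DESeq2 adjusted p = 0.00147. Fitting the proliferation score gave 0.63 (edgeR adjusted p = 0.0414), and dropping YFP-CTRL library C gave 0.54 (edgeR adjusted p = 0.00586). Dropping Meis1-OE A, B or C gave adjusted p of 0.0552, 0.158 and 0.146, and dropping YFP-CTRL library B gave 0.0670.

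The phosphatases gave no call in edgeR. Plpp1 (chr13:112800777-112867894) had 40.1, 42.4 and 45.2 CPM after Meis1-OE against 23.6, 35.7 and 40.25 CPM after YFP-CTRL, where A was the lowest and C was just above the lowest Meis1-OE library. Its log2 fold change was 0.36 (95% interval -0.10 to 0.82, edgeR adjusted p = 0.293) and was -0.01 once the proliferation score entered the fit. Plpp3 (chr4:105157347-105232767), which degrades lysophospholipids at the surface of EC, had 169, 190 and 204 CPM after Meis1-OE and 163, 214 and 164 CPM after YFP-CTRL. The groups overlapped widely, and the log2 fold change of 0.06 had a 95% interval of -0.28 to 0.40 (edgeR adjusted p = 0.841). The annotated end of Plpp1 overlaps Mtrex. The Plpp3 interval spans 0.822 to 1.32 times the YFP-CTRL level. The sign of the Plpp3 value changed when Meis1-OE library C or YFP-CTRL library A or C was left out.

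**Figure D2:**
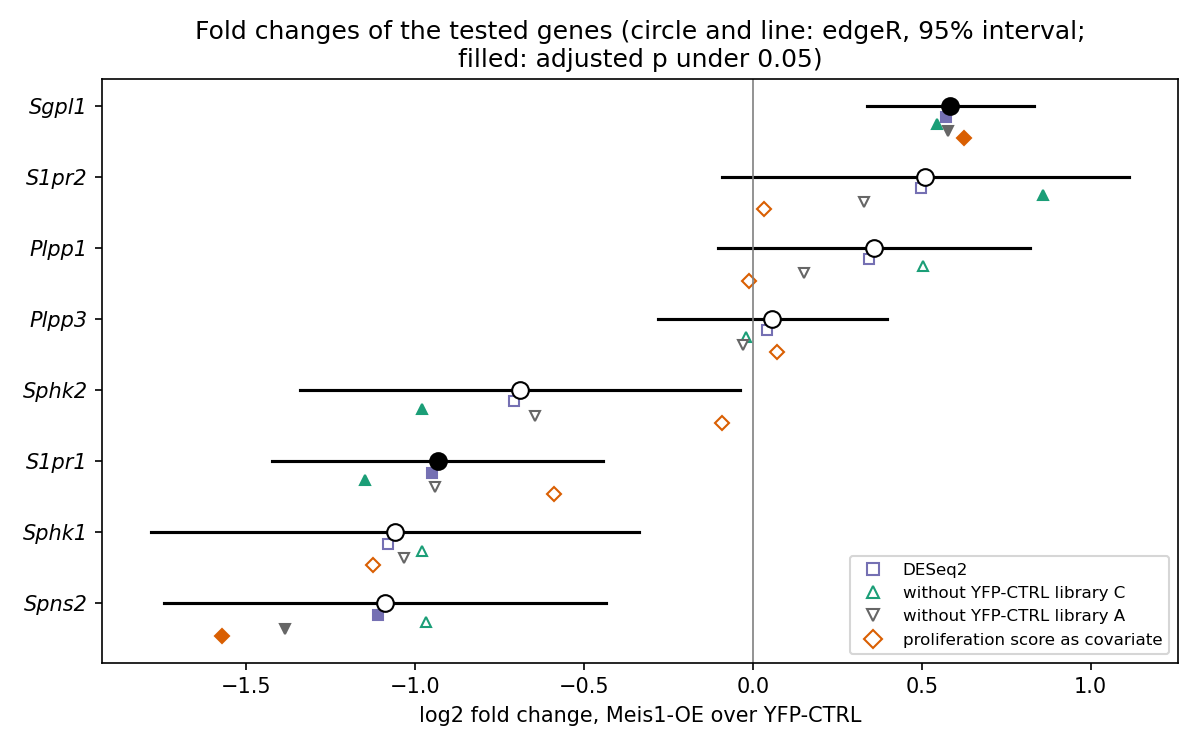
Log2 fold changes (Meis1-OE over YFP-CTRL) of the 8 tested S1P genes, with edgeR values as circles and 95% intervals as lines, and values from DESeq2, without YFP-CTRL library C or A, and from the fit that includes the proliferation score below each. Filled symbols mark an adjusted p under 0.05. The values of Sgpl1 lie between 0.54 and 0.63, while those of S1pr2 run from 0.03 to 0.86.

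Sequence upstream of the start was available from RefSeq for 8 of the 10 genes in 13 windows of build GRCm38.p6, each from 250 bases before to 50 after an annotated start, and not for S1pr1 or Plpp1. The 250 bases before the start of the genes coding for the lyase and the exporter are shown because Sgpl1 and Spns2 had the lowest adjusted p among the genes with a window and log2 fold changes of opposite sign. Capitals mark each CG pair, and both are written 5′ to 3′ on the minus strand. The Spns2 stretch lies inside the annotated gene, before a start that is not its outermost.
Sgpl1, chr10:61147685-61147934: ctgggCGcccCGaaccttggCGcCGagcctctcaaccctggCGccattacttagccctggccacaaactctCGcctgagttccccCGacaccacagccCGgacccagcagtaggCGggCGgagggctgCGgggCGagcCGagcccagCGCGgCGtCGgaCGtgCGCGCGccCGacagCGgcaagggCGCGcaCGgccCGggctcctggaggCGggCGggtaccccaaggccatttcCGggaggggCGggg
Spns2, chr11:72475028-72475277: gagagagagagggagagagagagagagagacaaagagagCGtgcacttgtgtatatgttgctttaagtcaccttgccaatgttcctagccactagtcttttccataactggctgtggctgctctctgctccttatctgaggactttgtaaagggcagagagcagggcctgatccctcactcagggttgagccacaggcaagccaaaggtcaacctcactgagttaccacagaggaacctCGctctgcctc
The Sgpl1 stretch holds 31 CG pairs at 74.8% G and C, and the Spns2 stretch 2 pairs at 51.6%. Over the same 250 bases of all 32851 windows, the medians are 6 pairs and 52.4%. The letters TGACAG, a word of Meis sites, were searched on both strands and were in 0 of the 13 windows, and 19.2% of all windows hold them. TGATTGA, a word of Pbx partner sites, was in the S1pr4 window only, beginning 162 bases before the start on the reverse strand (position -162), and 2.7% of all windows hold it. These are matches of letters and not binding sites.

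Levels can be set side by side between genes only per kilobase of exon, for which lengths were taken by symbol or RefSeq synonym from GENCODE M1. All annotated exons of a gene were joined, and Plpp1 and Plpp3 were matched as Ppap2a and Ppap2b. The annotation used for counting is not given, so the exons counted may differ from those measured. S1pr1 led in YFP-CTRL EC at 171 ± 49.7 CPM per kilobase, ahead of Spns2 at 76.7 ± 28.7 and Plpp3 at 57.1 ± 9.24 (SD, n = 3 each). Spns2 and Plpp3 overlapped between libraries, as did Plpp1, Sphk2 and Sgpl1 as neighbours further down and S1pr4 and Sphk1 near the bottom. In Meis1-OE EC, S1pr1 led at 89.7 ± 3.93 CPM per kilobase, followed by Plpp3 at 59.4 ± 5.52, Spns2 at 36.0 ± 2.77, Plpp1 at 26.0 ± 1.57, Sgpl1 at 18.8 ± 1.40 and Sphk2 at 10.2 ± 0.161. No neighbours in that order overlapped between the 3 Meis1-OE libraries. Plpp3 ranked above Spns2 in all 3 Meis1-OE libraries and in YFP-CTRL library A, and Sgpl1 above Sphk2 in all 3 Meis1-OE libraries and in YFP-CTRL library C. These changes of rank were not tested.

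Ratios of counts within a library put export and synthesis beside breakdown. The counts are not scaled for exon length, which is 6.14 kb for Sgpl1, 4.12 kb for Spns2 and 4.16 kb for Sphk2. The ratios can thus be compared between libraries but do not rank the genes by level. For each Sgpl1 count there were 1.43, 1.14 and 1.31 Spns2 counts after Meis1-OE, and 2.31, 4.98 and 5.06 after YFP-CTRL. For each Sgpl1 count there were 0.401, 0.351 and 0.356 Sphk2 counts after Meis1-OE, and 0.959, 1.16 and 0.532 after YFP-CTRL. Neither ratio overlapped between the groups, whereas the ratio of Plpp3 to Plpp1 counts did (4.22 to 4.51 in Meis1-OE EC and 4.08 to 6.88 in YFP-CTRL EC). Spns2 was lower and Sgpl1 higher without overlap, so their ratio had to separate as well. Sphk2 by itself overlapped between the groups. Both ratios share the Sgpl1 count and in part restate its level. The ratios are of transcript counts and say nothing on the amount of S1P, which was not measured here.

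YFP-CTRL library C, whose proliferation score was near that of the Meis1-OE libraries, divided the S1P genes. S1pr2 and Plpp1 in that library were within the Meis1-OE range, and Sphk2, at 39.5 CPM, was just below it (41.95 to 43.3 CPM). S1pr1, Sphk1, Spns2 and Sgpl1 were outside the Meis1-OE range in library C, on the same side as in A and B. Plpp3 was outside it on both sides, below in A and C (163 and 164 CPM) and above in B (214 CPM). In YFP-CTRL library C, S1pr1 was at 364 CPM against at most 285 CPM in any Meis1-OE library, Spns2 at 375 against at most 159 CPM, and Sgpl1 at 74.1 against at least 105.6 CPM. The score ran only from 6.65 to 6.71 in Meis1-OE EC, against 4.63 to 6.63 in YFP-CTRL EC. The fit with the score thus takes its slope almost wholly from the YFP-CTRL libraries and cannot separate proliferation from the vector. The part of proliferation in these levels was not tested.

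**Figure D3:**
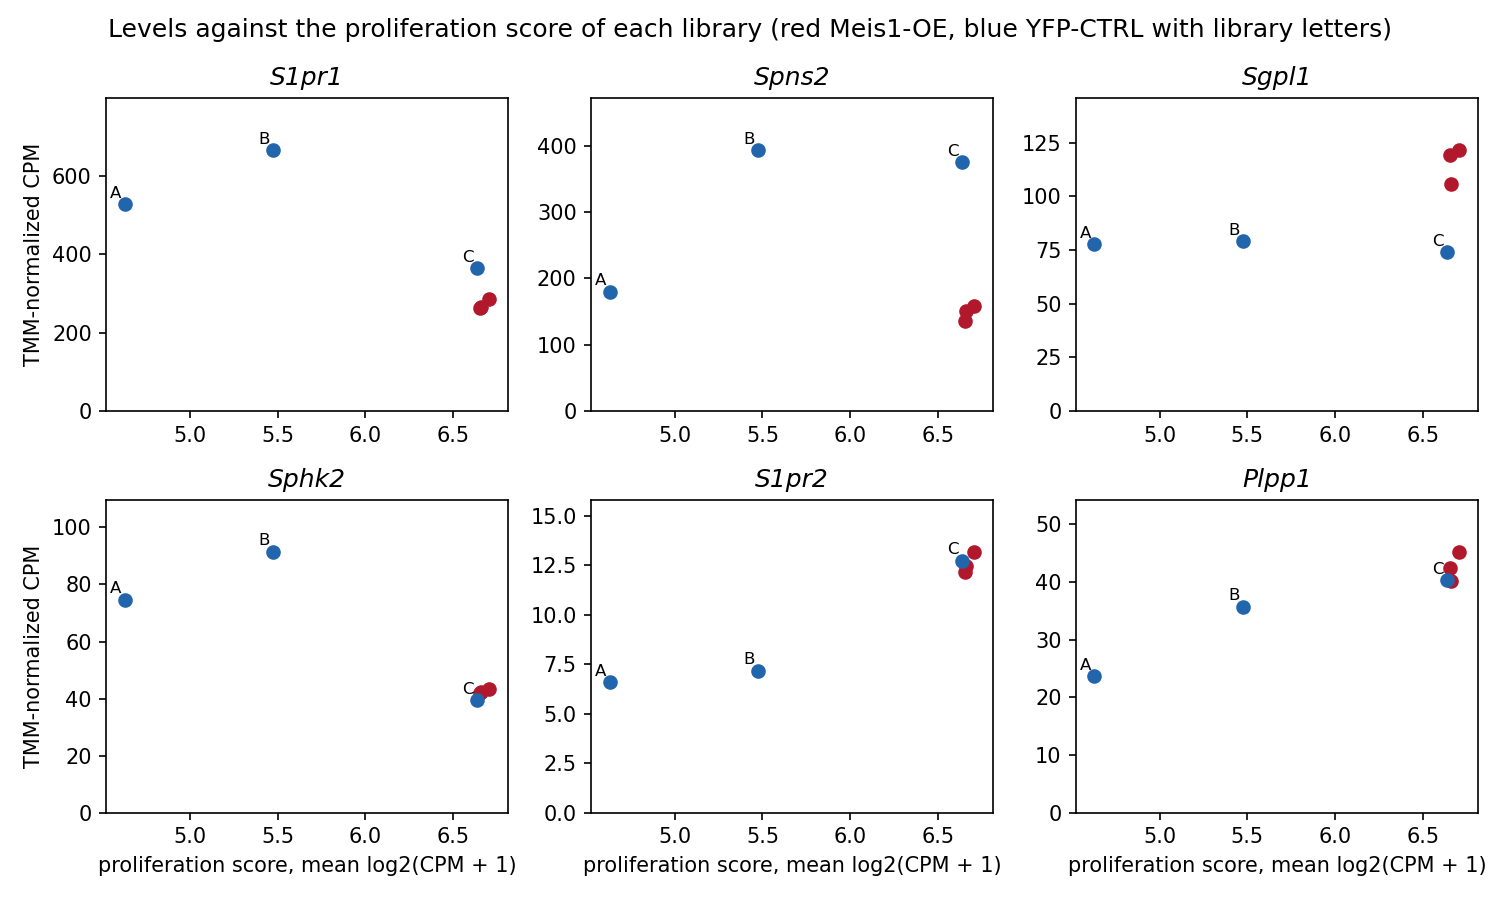
TMM-normalized CPM of 6 S1P genes against the proliferation score (mean log2(CPM + 1) of 15 S phase and mitosis genes) in each library, Meis1-OE in red and YFP-CTRL in blue with its library letter. YFP-CTRL library C, at a score of 6.63, sits among the Meis1-OE points for S1pr2 and Plpp1, next to them for Sphk2, and apart from them for S1pr1, Spns2 and Sgpl1.

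Other genes of sphingolipid metabolism were read from a list of 40 genes, of which 31 were tested. In Meis1-OE EC, 2 were higher and 0 were lower by edgeR (6 at an unadjusted p under 0.05, and 3 higher and 0 lower by DESeq2), with a median log2 fold change of 0.06. Over all tested genes the shares were 6.87% by edgeR, 26.2% at an unadjusted p under 0.05 and 12.3% by DESeq2, so the counts of this list are not above the background. The 2 were Acer2, an alkaline ceramidase of the Golgi that releases the sphingosine from which S1P is made, and Smpd3, a neutral sphingomyelinase that produces ceramide. Acer2 had 13.2, 18.5 and 20.99 CPM after Meis1-OE against 5.48, 3.02 and 3.39 CPM after YFP-CTRL. All Meis1-OE libraries were higher, at 4.45 times the YFP-CTRL level (95% interval 2.81 to 7.04, edgeR adjusted p = 0.00949). Smpd3 had 2.52, 4.65 and 5.23 CPM after Meis1-OE against 0.236, 0.637 and 0.660 CPM after YFP-CTRL, which is 7.92-fold higher (95% interval 3.84 to 16.4, edgeR adjusted p = 0.0128). For both genes YFP-CTRL library C lay with A and B, below all Meis1-OE libraries. Dropping Meis1-OE library B or C gave adjusted p of 0.0556 or 0.0514 for Acer2 and 0.0736 or 0.0669 for Smpd3. For Smpd3 it was 0.0621 without YFP-CTRL library B. Fitting the proliferation score gave 0.0161 for Acer2 and 0.0623 for Smpd3. Degs1, the desaturase that completes ceramide synthesis, had a log2 fold change of -0.20 (edgeR adjusted p = 0.455). Without YFP-CTRL library C, 9 genes of the list were higher and 2 lower, near the 31.7% of all genes called in that fit, so this is no result about the list. Given as values and named after they were seen, these genes included Sptlc2 (0.49) and Sptssa (0.62), subunits of the serine palmitoyltransferase that starts sphingolipid synthesis, and all 3 Ormdl genes, whose proteins restrain that enzyme, with Ormdl1 (0.63) and Ormdl2 (0.81) higher and Ormdl3 (-0.50) lower. Sgpp1, an S1P phosphatase of the endoplasmic reticulum, was at 0.52 (edgeR adjusted p = 0.0302) and Aldh3a2, which oxidizes the aldehyde that the lyase releases, at -0.62 (edgeR adjusted p = 0.0109) in that fit. With all libraries kept, Ormdl1 was higher in every Meis1-OE library, at a log2 fold change of 0.65 (edgeR adjusted p = 0.0520). It passed with DESeq2 (adjusted p = 0.00933).

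Genes that couple S1P receptors to the cell formed a list of 32, with 28 tested. By edgeR, 1 was higher and 2 were lower (7 at an unadjusted p under 0.05, and 2 higher and 4 lower by DESeq2), and the median log2 fold change was 0.04. These counts lie beside the same background shares of 6.87%, 26.2% and 12.3%. Rgs2 and Rgs3 belong to the proteins that speed the shutdown of G protein signals, and Gna12 encodes a G protein that acts on RhoA. Rgs2 had 10.8, 10.9 and 11.0 CPM after Meis1-OE against 31.7, 40.05 and 24.1 CPM after YFP-CTRL, a log2 fold change of -1.55 (standard error 0.19, edgeR adjusted p = 0.00762). Rgs3 was at 70.1, 85.5 and 91.2 CPM against 30.7, 36.9 and 54.1 CPM, a log2 fold change of 1.02 (standard error 0.22, edgeR adjusted p = 0.0414). These related genes thus moved in opposite directions, and for each the groups did not overlap. Gna12 was at 173, 168 and 194 CPM against 268, 324 and 235 CPM, with a log2 fold change of -0.63 (edgeR adjusted p = 0.0459). In the fit that includes the proliferation score, the edgeR adjusted p was 0.0254 for Rgs2, 0.0831 for Rgs3 and 0.165 for Gna12. For Rgs2, dropping Meis1-OE library B or C gave adjusted p of 0.0583 or 0.0555. When single libraries were left out, Rgs3 and Gna12 passed only without YFP-CTRL library C (edgeR adjusted p = 0.00193 and 0.00571). Leaving out Meis1-OE A, B or C or YFP-CTRL A or B gave adjusted p for Rgs3 of 0.0900, 0.176, 0.178, 0.0539 and 0.146 and for Gna12 of 0.158, 0.232, 0.155, 0.0672 and 0.118. On library totals the adjusted p of Gna12 was 0.0668. Without YFP-CTRL library C, 4 genes of the list were higher and 5 were lower, near the 31.7% of all genes called in that fit. Nos3, the endothelial nitric oxide synthase, had a log2 fold change of 0.12 (edgeR adjusted p = 0.663).

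**Figure D4:**
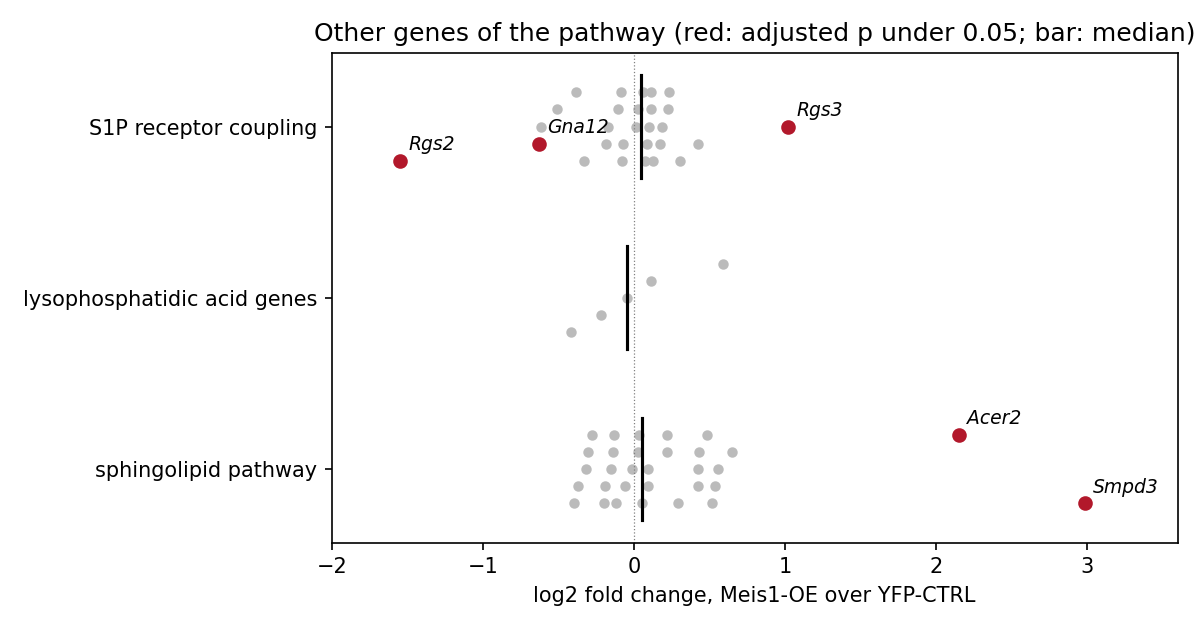
Log2 fold changes (Meis1-OE over YFP-CTRL, horizontal axis) of the tested genes of the sphingolipid pathway (31), lysophosphatidic acid (5) and S1P receptor coupling (28) lists, 1 point per gene, with black bars at the list medians. Red points with names are genes with an edgeR adjusted p under 0.05. Acer2 and Smpd3 lie at 2.15 and 2.99, Rgs3 at 1.02, Gna12 at -0.63 and Rgs2 at -1.55.

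Markers of EC and of other cell types were read beside the S1P genes. All 10 EC markers were counted, with a summed level of 3452 to 4310 CPM in Meis1-OE EC and 4534 to 6258 CPM in YFP-CTRL EC. Cdh5, which encodes VEC, had a log2 fold change of -0.70 (edgeR adjusted p = 0.0535) and Pecam1, which encodes CD31, one of -0.11 (edgeR adjusted p = 0.723, and a log2 fold change of 0.03 on library totals and without YFP-CTRL library B). By edgeR, 1 EC marker was higher (Vwf, log2 fold change 3.12, adjusted p = 0.0120) and 1 was lower (Tek, -0.78, adjusted p = 0.0351). Kdr had a log2 fold change of -1.23 (edgeR adjusted p = 0.0504). DESeq2 called Vwf higher and Tek, Kdr and Cdh5 lower. Over all tested genes, 6.87% were called by edgeR and 12.3% by DESeq2. Vwf, Tek and Kdr were named after their values were seen. The 10 markers of smooth muscle and fibroblasts summed to 15.8 to 17.9 CPM in Meis1-OE EC and 34.9 to 54.2 CPM in YFP-CTRL EC, with Lum at 0 in all libraries and Pdgfra the highest (log2 fold change -1.47, edgeR adjusted p = 0.0598, DESeq2 adjusted p = 0.00140). The other markers of this list that were tested, Acta2 and Pdgfrb, had log2 fold changes of -1.96 and 0.55 (edgeR adjusted p = 0.359 and 0.344). Acta2 had 152, 64 and 46 counts after Meis1-OE and 7, 89 and 902 after YFP-CTRL, so its negative value rests on YFP-CTRL library C. The 10 macrophage markers summed to 69.8 to 106 CPM and 65.1 to 140 CPM, most of it Cd68 (log2 fold change -0.23, and 0.04 without YFP-CTRL library B), with C1qa, C1qb, C1qc, Tyrobp and Adgre1 at 0 in all libraries. The other macrophage markers tested, Lyz2 and Csf1r, were below 1 CPM in every library, each with a log2 fold change of 1.63 (edgeR adjusted p = 0.181 and 0.148), and Csf1r passed without YFP-CTRL library C (edgeR adjusted p = 0.0210). The 5 lymphatic EC markers summed to 178 to 187 CPM in Meis1-OE EC and 280 to 558 CPM in YFP-CTRL EC, with Pdpn and Ccl21a at 0. Prox1, which defines lymphatic EC, had no more than 2 counts per library, and Lyve1 had a log2 fold change of -1.84 (edgeR adjusted p = 0.0301). Flt4, the only other marker of this list that was tested, had a log2 fold change of 0.05 (edgeR adjusted p = 0.948). Without single libraries, the adjusted p ran up to 0.0753 for Vwf, 0.173 for Tek and 0.149 for Lyve1. The part of these markers in the S1P gene levels was not tested.

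**Figure D5:**
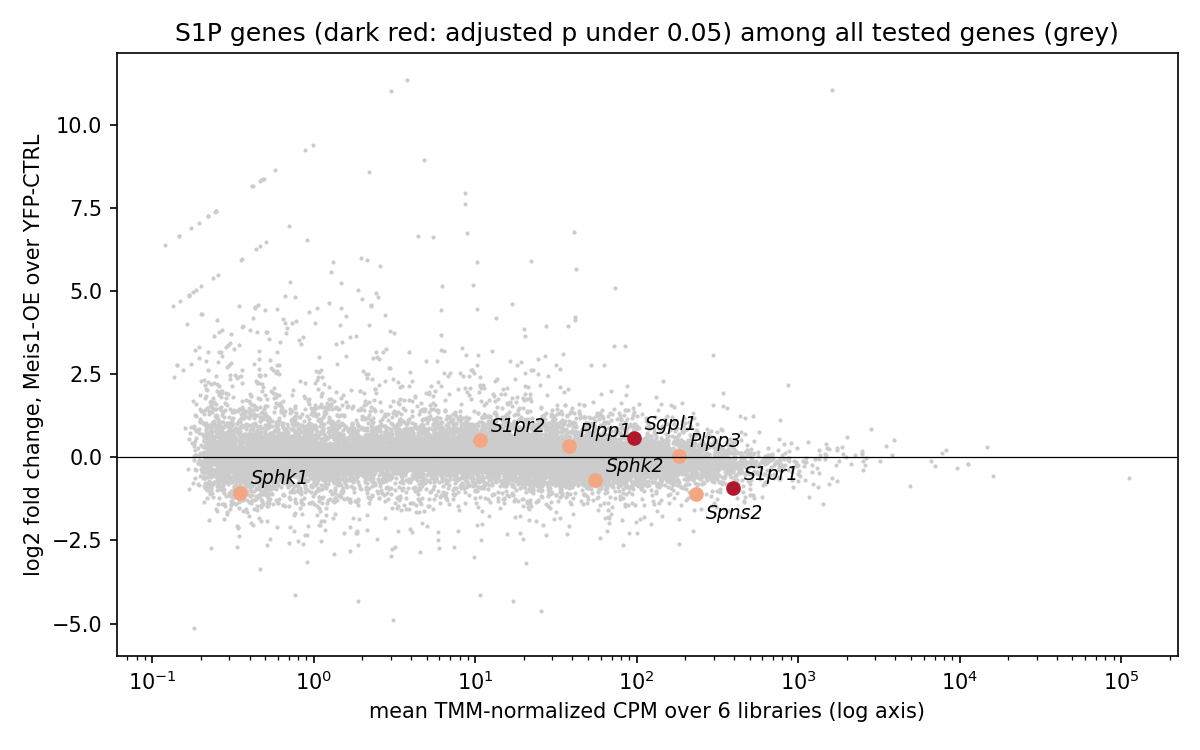
Log2 fold change (Meis1-OE over YFP-CTRL) against mean TMM-normalized CPM over the 6 libraries (log axis) for the 16065 tested genes in grey, with the 8 tested S1P genes in orange, or in dark red where the edgeR adjusted p is under 0.05. S1pr1 and Sgpl1 are the 2 in dark red, and Sphk1 lies at the low end of the axis.

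The 3 genes whose levels were most like those of S1pr1 over the 6 libraries, by Pearson correlation of log2(CPM + 1) among 10221 other genes with a mean of at least 5 CPM, were Mtf1, Taco1 and Acvr1, with coefficients of 0.9990, 0.9989 and 0.9987. The points share the split into 2 groups and the same scaling, and 526 genes had a coefficient above 0.95, so these are given as a description. Acvr1, a type I receptor of the activin and BMP family, had 17.2, 16.8 and 17.7 CPM after Meis1-OE against 31.1, 39.6 and 22.0 CPM after YFP-CTRL, in the same order of YFP-CTRL libraries as S1pr1.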

How the data were processed

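RNA-seq of Meis1-OE and YFP-CTRL EC was analysed from 1 table. The authors deposited estimated counts per gene symbol, not normalized. Ribodepletion is stated by the authors, and the submitters' processing notes name build mm10. The aligner, counting tool, annotation and strand setting are not given in the sources used here. Groups came from the labels. Columns carry letters and the labels carry numbers, so no column was tied to a numbered replicate, and no column was left unmapped to a group. Between 7767 and 8411 genes per library had counts that were not whole, and all counts were rounded. Library totals were 34176592 to 47956569 counts, and 1 count is 0.0216 to 0.0294 CPM. All pairs of libraries differed by more than sampling noise (chi-square per gene of at least 18.6).

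Tests were run with edgeR 4.0.16 in R 4.3.3 (filterByExpr, TMM, quasi-likelihood test, two-sided) and Benjamini-Hochberg adjustment over 16065 genes, with a threshold of 0.05. Standard errors came from the F statistic. DESeq2 1.42.0 was an alternative, as were other scalings, filters, a robust fit, a column-letter block, the proliferation score as a covariate and leaving out each library. The code was tested on simulated data. Per the authors' methods, cells of each library were transduced separately, so p-values measure the spread between 3 transductions per group. With 3 against 3, an exact permutation test cannot go below 0.1, so none was used. Plots were made in Python 3.11.15 (matplotlib 3.10.9).

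The S1P genes and lists were chosen with earlier results of these data known. Named were all S1P genes, Meis1, genes of the other lists past the threshold, the most abundant gene of each list, Pecam1, Cdh5, Mki67 and the 3 genes most like S1pr1. Sequences and coordinates are from RefSeq (GRCm38.p6, the same assembly as mm10).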

Additional observations from a re-analysis of the deposited data

How the results depend on the processing

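Of the S1P genes, Sgpl1 stayed positive and S1pr1, Spns2, Sphk1 and Sphk2 stayed negative under every alternative run, and the sign of S1pr2 held as well. The log2 fold change of Plpp1 was -0.013 with the proliferation score as a covariate. Plpp3 was at -0.006, -0.03 and -0.021 without Meis1-OE library C and YFP-CTRL libraries A and C, in a range of -0.03 to 0.21 over all single libraries left out. Among markers, Pecam1 was at 0.033 on library totals and ran from -0.28 to 0.031 over single libraries left out, and Cd68 from -0.50 to 0.037. Mki67, at 1.19 without the covariate, was at -0.0041 with the covariate that contains it.

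The count of S1P genes called lower was 0 on library totals, 0 with the column letter as a replicate block and 2 with DESeq2, and that called higher was 0 with the replicate block. Leaving out single libraries gave 0 to 2 in each direction. Genes called higher and lower over the whole table were 1048 and 179 on library totals and 1124 and 1115 with DESeq2. With the covariate they were 362 and 289, and 189 were lower with the replicate block. Without single libraries the counts ran from 115 to 2717 higher and from 16 to 2498 lower. Deviations from the group means correlated at 0.24, 0.19 and 0.08 between libraries with the same letter A, B and C. Between libraries with different letters the values ran from -0.30 to 0.25, negative apart from Meis1-OE C with YFP-CTRL B (0.25). The letters were not taken as pairs, and these values do not settle whether they are. With the replicate block the adjusted p was 0.0798 for S1pr1 and 0.0650 for Sgpl1. The causes of these shifts were not tested. Smpd3 could not be tested with at least 10 counts in every library. Counts limit Sphk1, S1pr3 and S1pr4, for which differences were not detectable or rest on few reads.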

Other observations

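Lysophosphatidic acid is the closest relative of S1P among signalling lipids, and some of its receptors (Lpar1 to Lpar3) share a family with those of S1P. Of 10 genes of this lipid, 8 had a count and 5 were tested, and 0 passed by edgeR in either direction (0 at an unadjusted p under 0.05, and 0 with DESeq2). Over all tested genes the shares were 6.87% by edgeR, 26.2% at an unadjusted p under 0.05 and 12.3% by DESeq2. With 5 genes tested, these counts are no result about the list. Lpar6, a receptor, averaged 12.7 CPM after Meis1-OE and 14.8 CPM after YFP-CTRL (log2 fold change -0.22, edgeR adjusted p = 0.627), and Agk, a mitochondrial lipid kinase, a log2 fold change of -0.05 (edgeR adjusted p = 0.848). Enpp2, which makes lysophosphatidic acid outside the cell, had at most 2 counts in any library. Without YFP-CTRL library C, 1 gene of the list was called lower, the receptor Lpar4 (log2 fold change -0.58, edgeR adjusted p = 0.0298). In that fit 31.7% of all genes were called. Lpar4, Lpar6 and Enpp2 were named after their values were seen.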
